A study of Mus musculus with 14 samples.

Results

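A set of mouse genes of superoxide and peroxide removal was examined in peak lists of the Polycomb protein BMI1 and of the histone mark H2AK119ub in cardiac cells, after paraquat or PBS. The 10 genes are Sod1, Sod2, Sod3, Cat, Gpx1, Gpx3, Prdx1, Prdx6, Nfe2l2 and Keap1, out of 21896 protein-coding genes with a position on GRCm38. They were chosen by role, because paraquat produces superoxide. A peak was assigned to a gene when it overlapped the gene body or a window of 5 kb on either side by 1 bp or more, and peaks were also followed out to 100 kb. Of the 39832 peaks in all lists, 44 lay within 100 kb of one of the 10 genes and 15 within 5 kb.

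The cells were Sca1+CD45- cardiac cells from C57BL/6 mice aged 6 to 8 weeks, enriched by magnetic sorting. Mice of the Damage group had received a single intraperitoneal injection of 20 mg/kg paraquat in PBS, and mice of the Homeostasis group PBS without paraquat. Each treatment was combined with each antibody, which gave 4 groups of 3 ChIP-seq libraries, and the 2 Input libraries were not analysed here. All groups share the strain, the age range and the sort. The labels describe culture of the sorted cells at 3% O2 and do not say whether the cells used for ChIP had been cultured. Nor do they say whether mice were pooled or whether each replicate is a separate mouse. The p-values below reflect the spread among these libraries alone, and that spread may be technical. The sorted cell type could not be checked against its markers, because peak lists hold no expression. Within 5 kb, a peak in any list was found at 1 of 4 stromal markers (Pdgfra in 6 Homeostasis lists, against none at Ly6a, Thy1 and Eng) and at 0 of 3 leukocyte markers (Ptprc, Cd68 and Itgam). It was found at 3 of 3 endothelial markers (Pecam1 in 4 lists, Cdh5 and Kdr in 1 each) and at 1 of 3 cardiomyocyte markers (Myh6 in 1 list, against none at Tnnt2 and Actn2). Over all protein-coding genes, 80.6% had no peak within 5 kb in any list. The endothelial markers are 42.9 to 61.1 kb long, and over all protein-coding genes longer genes had peaks more often. Among the other markers, Ptprc (113 kb) and Actn2 (71.3 kb) had no peak, while Pdgfra (46.9 kb) and Myh6 (26.1 kb) had peaks. Whether length bears on the peaks at markers was not tested.

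Superoxide dismutases turn superoxide into hydrogen peroxide, and catalase, glutathione peroxidases and peroxiredoxins then remove the peroxide. The transcription factor NRF2, encoded by Nfe2l2, induces many such genes through the antioxidant response element, and KEAP1 holds NRF2 in check by directing its degradation. BMI1 belongs to Polycomb repressive complex 1, which places a single ubiquitin on histone H2A (H2AK119ub), a mark tied to gene repression. Paraquat is a herbicide that cycles between redox states in cells and passes electrons to oxygen.

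The RefSeq promoter table (GRCm38.p6) held 8 of the 10 genes. Sod3 and Prdx6 are not in that table. Each window below is the 250 bases that end at the base before the annotated start site, 5′ to 3′ on the strand of the gene. The 4 windows shown are those of Cat, the gene with peaks just upstream of its start, and of the 3 genes whose window holds the core of the antioxidant response element. Capitals mark that core, searched as TGACNNNGC and as its reverse complement GCNNNGTCA. The windows are chr16:90220512-90220761 on the plus strand for Sod1, chr2:103485154-103485403 on the minus strand for Cat, chr4:116685349-116685598 on the plus strand for Prdx1 and chr2:75704664-75704913 on the minus strand for Nfe2l2.
Sod1: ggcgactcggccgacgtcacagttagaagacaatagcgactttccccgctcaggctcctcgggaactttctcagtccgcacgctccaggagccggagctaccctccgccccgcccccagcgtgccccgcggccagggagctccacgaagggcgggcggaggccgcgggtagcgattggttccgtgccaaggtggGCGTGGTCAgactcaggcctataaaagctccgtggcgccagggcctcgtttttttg
Cat: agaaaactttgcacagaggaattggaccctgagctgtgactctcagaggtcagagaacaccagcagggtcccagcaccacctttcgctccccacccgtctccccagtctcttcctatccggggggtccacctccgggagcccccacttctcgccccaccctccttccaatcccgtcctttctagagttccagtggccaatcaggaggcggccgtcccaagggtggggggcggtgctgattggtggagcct
Prdx1: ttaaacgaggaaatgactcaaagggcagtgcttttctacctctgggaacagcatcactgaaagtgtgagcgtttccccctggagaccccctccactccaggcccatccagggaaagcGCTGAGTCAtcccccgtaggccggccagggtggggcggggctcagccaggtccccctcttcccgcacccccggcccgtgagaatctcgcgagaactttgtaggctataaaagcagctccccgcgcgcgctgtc
Nfe2l2: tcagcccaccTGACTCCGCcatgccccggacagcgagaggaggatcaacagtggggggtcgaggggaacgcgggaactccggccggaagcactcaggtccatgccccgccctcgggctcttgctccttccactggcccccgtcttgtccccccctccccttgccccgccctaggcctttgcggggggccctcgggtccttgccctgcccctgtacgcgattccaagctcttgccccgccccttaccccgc

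The core occurred once each in the windows of Sod1, Prdx1 and Nfe2l2, at positions 195, 118 and 11 counted from 1 at the 5′ end, and in none of the other 5 windows. That is 3 of 8 genes, or 37.5%, beside 3338 of 32851 promoters of the table (10.2%). Those promoters belong to 27025 genes, so some genes have several, and the set is wider than the protein-coding genes used elsewhere. The median GC content was 61.8% in the 8 windows and 52.4% over all promoters of the table. A match is a run of letters and not a binding site. The 8 windows held a median of 13 CpG dinucleotides, from 7 at Gpx1 to 26 at Sod1, beside a median of 6 over all promoters of the table. No peak of any list lay within 5 kb of the start site of a gene with the core. The same held for Sod2, Gpx1, Gpx3 and Keap1, whose windows lack the core. Over all protein-coding genes, 80.6% had no peak within 5 kb of the gene in any list. The window of Cat, with peaks 1.5 to 1.8 kb upstream of the gene, held 9 CpG and no core.

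Lists of the Damage group were short: the 3 BMI1 lists held 19 to 47 peaks and the 3 H2AK119ub lists 25 to 68, against 4072 to 7513 in the Homeostasis BMI1 lists and 2000 to 13487 in the Homeostasis H2AK119ub lists. Read depth is unknown, since the files give positions and a constant score. A smaller number of cells that carry a mark and less of it per cell cannot be told apart in such lists. The shortest Homeostasis list, H2AK119ub replicate 1 with 2000 peaks, stands apart, and the tests below are also given without it.

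After paraquat, no peak of either antibody lay in or within 100 kb of any of the 10 genes. At homeostasis, 2 of the 10 genes had a peak within 5 kb, Sod3 and Cat. Sod3, the secreted superoxide dismutase of the extracellular space, carried peaks of both antibodies inside the gene in every Homeostasis list. Cat, which encodes catalase of the peroxisome, carried peaks of both antibodies 1.5 to 1.8 kb upstream of its start in 5 of 6. The remaining 8 genes had none within 5 kb in any list, and that share, 80% of 10 genes, lies beside 80.6% of protein-coding genes. The share without a peak was thus close to that of the background.

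**Figure D1:**
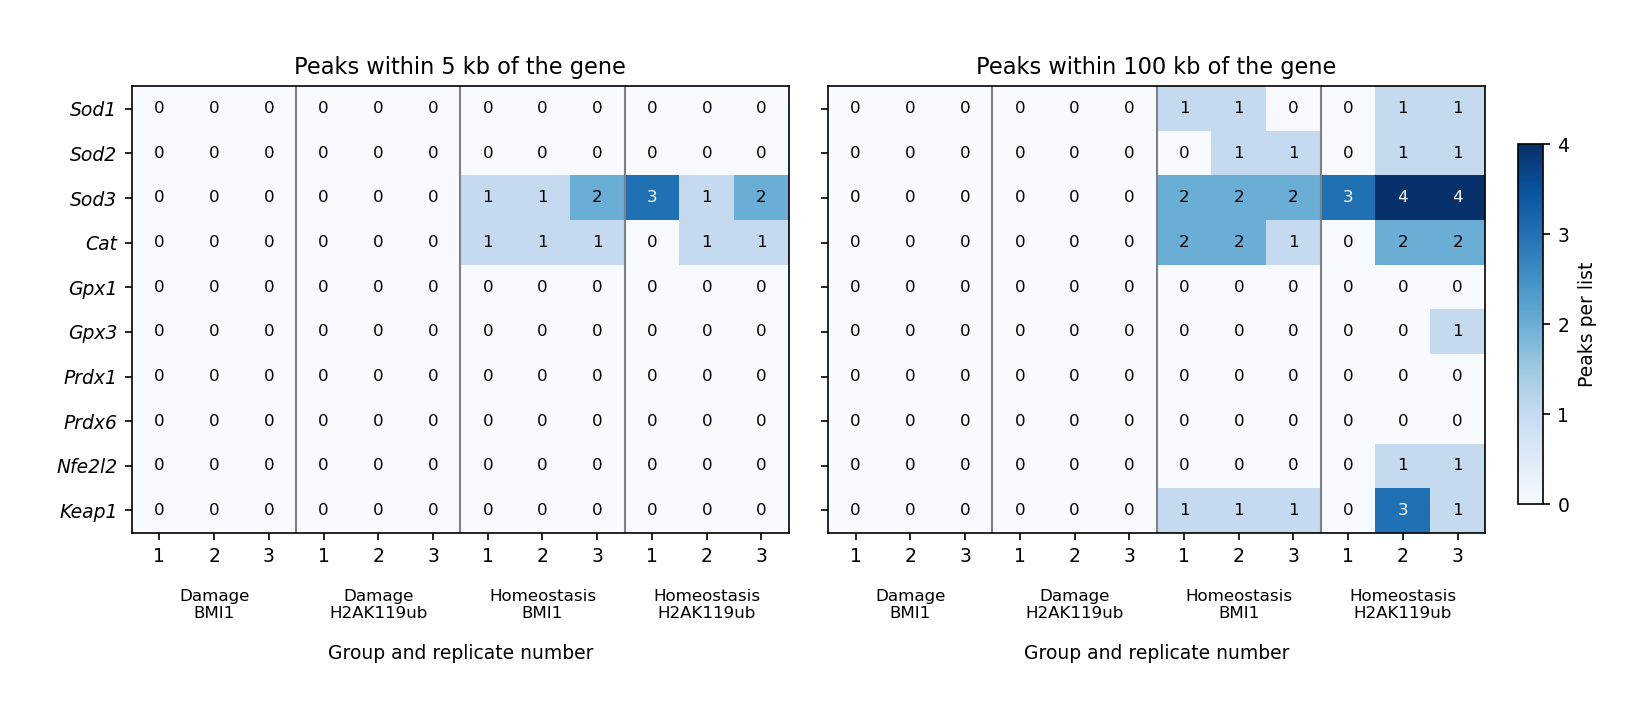
Number of peaks within 5 kb (left panel) and within 100 kb (right panel) of each of the 10 genes (rows) in each of the 12 peak lists (columns, grouped by treatment and antibody and numbered by replicate); darker blue marks more peaks. All Damage columns are at 0, and within 5 kb only Sod3 and Cat have peaks, up to 3 per Homeostasis list.

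The superoxide dismutases differed in where their peaks lay. Within 5 kb, Sod3 had 0, 0 and 0 peaks in the Damage BMI1 lists, against 1, 1 and 2 in the Homeostasis BMI1 lists (1.33 ± 0.577, SD, n = 3). It had 0, 0 and 0 peaks in the Damage H2AK119ub lists, against 3, 1 and 2 in the Homeostasis H2AK119ub lists (2 ± 1, SD, n = 3). The treatment groups do not overlap for either antibody. Such a gap needs a peak in all 3 Homeostasis lists, found within 5 kb at 4.44% of protein-coding genes for BMI1 and 2.92% for H2AK119ub. With Damage lists so short, it cannot be told apart from list length. The highest count at Sod3, 3, came from the shortest Homeostasis list, and these 3 peaks were that list's only peaks within 100 kb of any of the 10 genes. All 10 Homeostasis peaks of Sod3 within 5 kb lay in the gene body. With a gene body peak in 2 or more of 3 Homeostasis lists as the rule, 1 of 10 genes passed for each antibody, Sod3. Over protein-coding genes that share was 5.72% for BMI1 and 7.45% for H2AK119ub. No other of the 10 genes had a gene body peak in any list. The same was true of 88.8 to 99.8% of protein-coding genes in the length classes of those other genes. The body of Sod3 (chr5:52363804-52369738) is 5.93 kb long. The peaks spanned chr5:52368086-52369379, from 72.1% to 93.9% of the gene's length counted from its lower coordinate end. The table used gives no strand for Sod3, so that span is not assigned to either end of the transcript, and exons are not annotated in it. Of the 10 peaks, 7 overlapped a peak of another list by 1 bp or more.

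**Figure D2:**
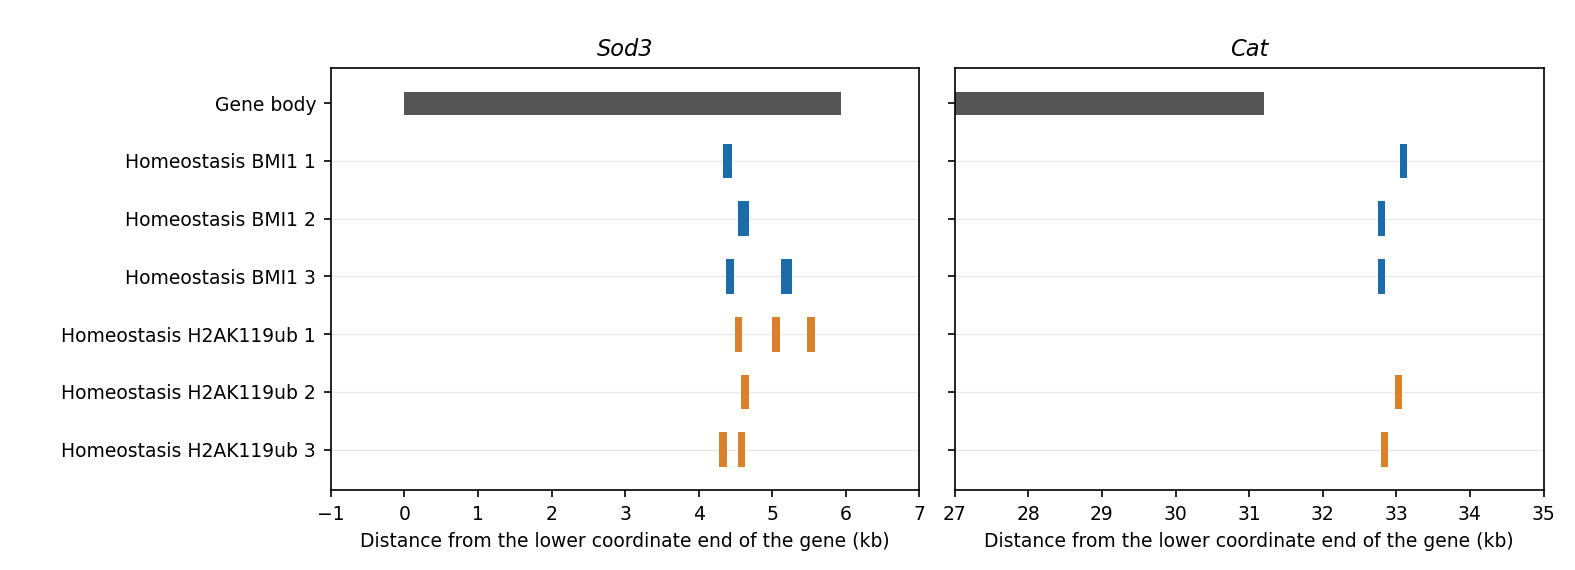
Position of each Homeostasis peak near Sod3 (left) and near the start of Cat (right), in kb from the lower coordinate end of the gene, for the 3 BMI1 lists (blue) and the 3 H2AK119ub lists (orange); the grey bar is the gene body, of which the right panel shows the last part, where transcription of Cat begins. Sod3 peaks lie inside the gene in all 6 lists, and Cat peaks lie beyond its end in 5 of 6.

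Peaks in Sod3 were also wider than elsewhere near these genes. Of the 10 peaks in the Sod3 body, 5 exceeded 101 bp, the commonest width, with widths of 102, 105, 124, 141 and 158 bp. By comparison 0 of the 34 other peaks within 100 kb of the 10 genes did, and 1629 of 39615 Homeostasis peaks (4.11%). Of the 5 wider peaks, 4 came from BMI1 lists and 1 from the H2AK119ub list of replicate 1. This is a description, as the 10 peaks share 1 region.

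A gene as short as Sod3 seldom had a peak in each Homeostasis list. Sod3 lies in the third of 10 length classes, in which 24 of 2189 protein-coding genes (1.1%) had a peak within 5 kb in all 6 Homeostasis lists, and 7 (0.32%) had one in the gene body in all 6, where the share over all protein-coding genes was 1.98%. Of the 5677 protein-coding genes as short as Sod3 or shorter, itself included, 5 had a peak in the gene body in all 6 lists (0.0881%). Sod3 held 10 such peaks over the 6 lists, and the others were Npbwr1 with 7 and Cxcl5, Fam24b and H4c1 with 6 each, genes named after their values were seen. Among the 433 genes with a peak in the body in all 6 lists, whose median length was 174 kb, Sod3 ranked 4 by peaks per kb of gene body, at 1.68 against a median of 0.0474 peaks per kb. Each of the 433 holds a peak in every list by that rule, so short genes rank high. The 10 Sod3 peaks also lie within 1294 bp and are not separate regions. Genes with the same presence and absence over the 12 lists as Sod3, within 5 kb, numbered 551 of 21895 (2.52%). The 3 nearest to it in length were Vgll2, Aurkb and Mycn.

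**Figure D3:**
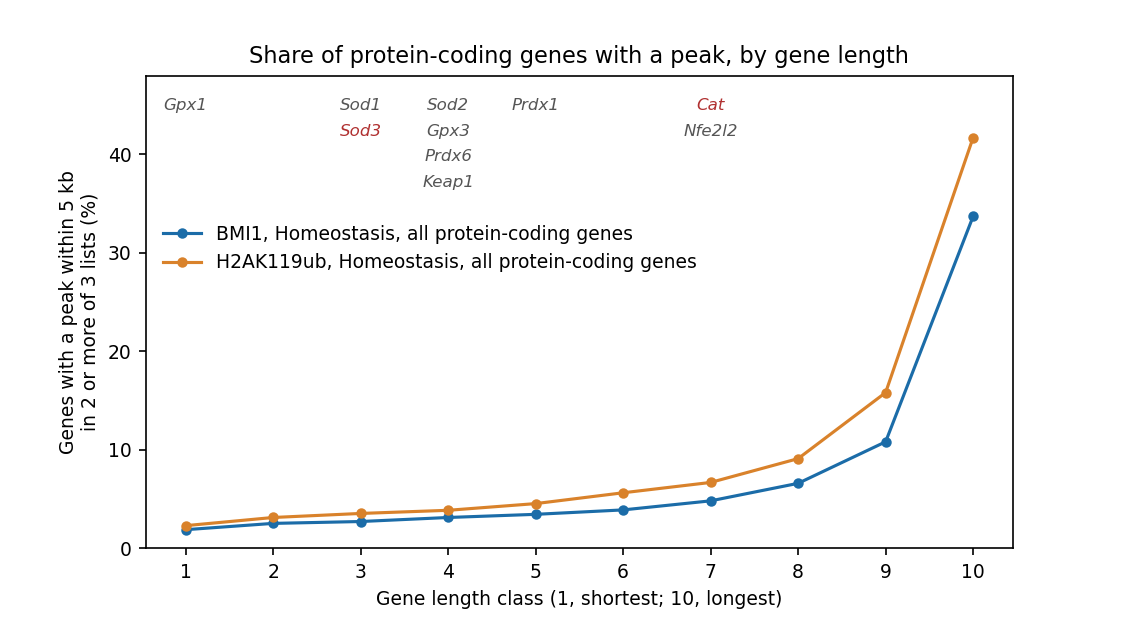
Share of protein-coding genes with a peak within 5 kb in 2 or more of 3 Homeostasis lists (y axis, %) against gene length class (x axis, 10 classes from shortest to longest), for BMI1 (blue) and H2AK119ub (orange); the names above show the class of each of the 10 genes, in red for Sod3 and Cat, which pass the rule. In the class of Sod3 the share is 2.7% for BMI1 and 3.52% for H2AK119ub.

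Further peaks lay around Sod3. A site 13.7 kb beyond its lower coordinate end (chr5:52349814-52350110) was found in 4 Homeostasis lists, 2 of each antibody, and Sod3 was its nearest protein-coding gene. At 52.9 and 80.1 kb beyond the higher end, inside the neighbouring gene Ccdc149, single H2AK119ub peaks lay in 1 and 2 lists. Within 100 kb this gave 0 peaks in each of the 6 Damage lists, against 2, 2 and 2 in the Homeostasis BMI1 lists and 3, 4 and 4 in the Homeostasis H2AK119ub lists.

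Sod1, the dismutase of the cytosol and the space between the mitochondrial membranes, had no peak within 5 kb in any list. Its nearest peaks formed 1 site 38.3 kb upstream (chr16:90182242-90182511). Within 100 kb it had 0 peaks in all 6 Damage lists, against 1, 1 and 0 in the Homeostasis BMI1 lists and 0, 1 and 1 in the Homeostasis H2AK119ub lists. All 4 of these peaks overlapped a peak of another list. The nearest protein-coding gene to the site was Tiam1, 36.6 kb away.

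Sod2, the dismutase of the mitochondrial matrix, likewise had none within 5 kb. Its nearest peaks lay 37.4 kb downstream, in 0 of 6 Damage lists, against BMI1 replicates 2 and 3 and H2AK119ub replicates 2 and 3 of the Homeostasis lists. The 4 peaks, each 101 bp wide, coincided to within 5 bp and together spanned 106 bp (chr17:13055528-13055633). The site lay closer to Gpr31b, at 3.25 kb, than to Sod2. Thus Sod1 and Sod2 shared the number of lists, 4 of 6 at homeostasis, and differed in which BMI1 replicate had no peak.

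Among the enzymes that remove peroxide, Cat alone had peaks within 5 kb. It had 0, 0 and 0 peaks in the Damage BMI1 lists, against 1, 1 and 1 in the Homeostasis BMI1 lists. It had 0, 0 and 0 peaks in the Damage H2AK119ub lists, against 0, 1 and 1 in the Homeostasis H2AK119ub lists (0.667 ± 0.577, SD, n = 3). The BMI1 groups do not overlap, and the H2AK119ub groups overlap through Homeostasis replicate 1, the shortest list. A peak within 5 kb in all 3 Homeostasis BMI1 lists was found at 4.44% of protein-coding genes, and the gap cannot be told apart from list length. The gene runs from chr2:103453904 to 103485153 on the minus strand, and the 5 peaks lay at chr2:103486651-103487056, upstream of the window printed above. Their centres were 1.55 to 1.85 kb upstream of the start site, and each overlapped a peak of another list. No peak lay in the body of Cat, which is 31.2 kb long. A second site 48 kb downstream (chr2:103405745-103405950) was found in 4 Homeostasis lists and lay 6.15 kb from Elf5. Within 100 kb, Cat therefore had 0 peaks in all 6 Damage lists, against 2, 2 and 1 in the Homeostasis BMI1 lists and 0, 2 and 2 in the Homeostasis H2AK119ub lists. The pattern of Cat within 5 kb, present in 5 Homeostasis lists and absent from H2AK119ub replicate 1, was shared by 373 of 21895 genes (1.7%), and Ccn4, D2hgdh and Cyp3a44 were the 3 nearest to Cat in length.

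Of the glutathione peroxidases and peroxiredoxins among the 10 genes, only Gpx3 had a peak within 100 kb. Gpx1, the selenium enzyme of the cytosol, Prdx1, a peroxidase that draws on thioredoxin, and Prdx6, a peroxiredoxin with phospholipase activity, had no peak within 100 kb in any of the 12 lists. Those 3 of 10 genes lie beside 31.0% of protein-coding genes with none within 100 kb. Gpx3, the secreted glutathione peroxidase of plasma, had a single peak 95.8 kb upstream, in Homeostasis H2AK119ub replicate 3, and 0 peaks in the other 11 lists. Other glutathione peroxidases and peroxiredoxins, of the pathway lists below, had a peak within 100 kb in 1 to 6 lists, apart from Prdx5 with 0.

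The sensor and the regulator of the response had no peak within 5 kb either. Keap1, within 100 kb, had 0 peaks in all 6 Damage lists, against 1, 1 and 1 in the Homeostasis BMI1 lists and 0, 3 and 1 in the Homeostasis H2AK119ub lists. Its nearest site lay 12.2 kb downstream (chr9:21216972-21217578), in 5 of 6 Homeostasis lists, and was closer to Pde4a, at 3.72 kb, than to Keap1. Of the other 2 Keap1 peaks, both from H2AK119ub replicate 2, 1 lay inside Pde4a and 1 inside Slc44a2. Nfe2l2 had 0 peaks within 100 kb in all 6 Damage lists and in the 3 Homeostasis BMI1 lists, while the Homeostasis H2AK119ub lists had 0, 1 and 1. These 2 peaks lay at 84.7 kb, inside the long noncoding RNA gene Gm13657, and at 99.3 kb upstream, so each was found in 1 list.

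**Figure D4:**
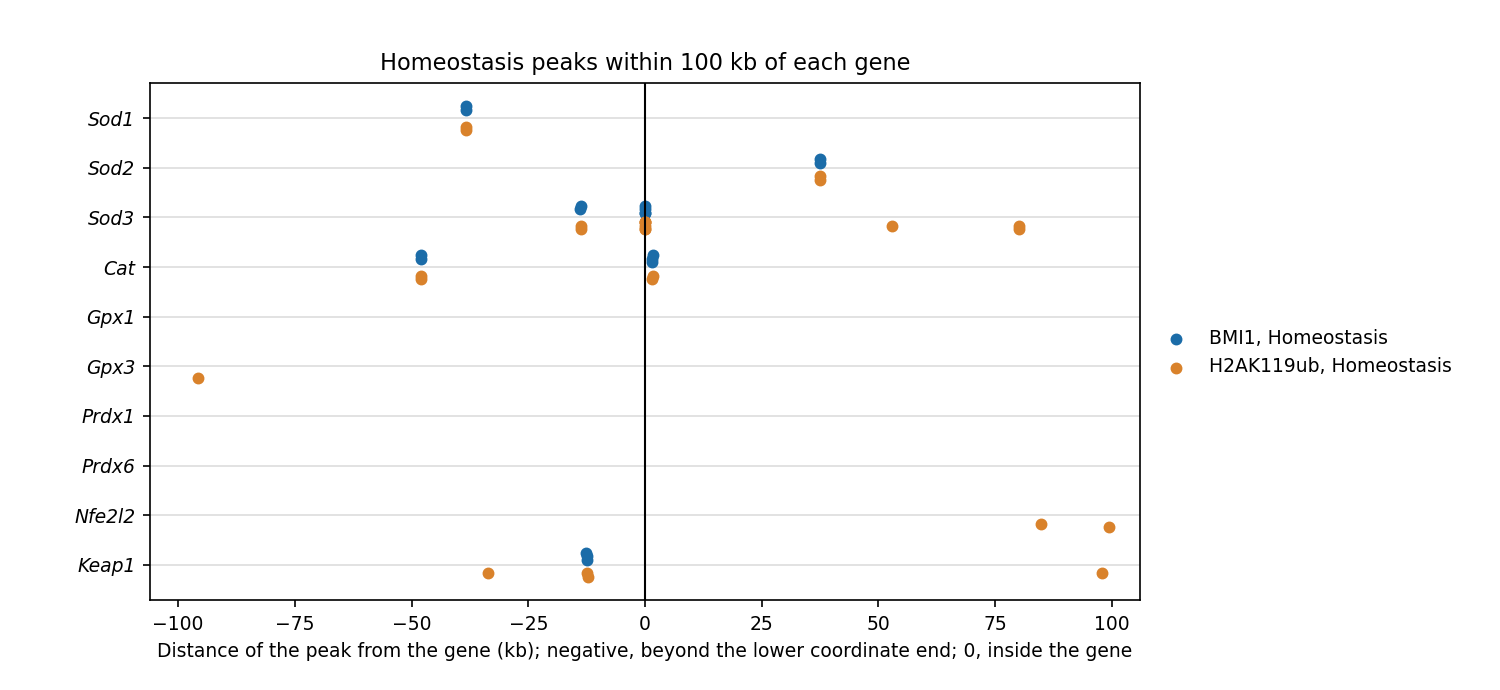
Distance in kb (x axis) of each of the 44 Homeostasis peaks from each of the 10 genes (rows), for BMI1 (blue, upper points of a row) and H2AK119ub (orange, lower points); 0 is inside the gene and negative values lie beyond the lower coordinate end. Points from different lists stack at the same sites, and the 10 peaks in the body of Sod3 fall on one another at 0; no Damage peak lies in the range.

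Peaks of different lists met at the same sites. Peaks within 1 kb of each other, joined over lists, gave 14 sites within 100 kb of the 10 genes. Of these, 7 were found in 4 or more of the 6 Homeostasis lists (50%), beside 27% of the 15888 Homeostasis sites of the genome. The 7 were the 2 nearest sites of Sod3, the 2 of Cat and the nearest of Keap1, Sod1 and Sod2. With 3 lists of each antibody, a site in 4 or more lists holds both antibodies by that rule. The 6 sites found in 1 list all came from H2AK119ub replicates 2 and 3, the 2 longest H2AK119ub lists. No site lay on a tRNA, 5S ribosomal RNA or immunoglobulin heavy chain gene.

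With a peak in 2 or more of 3 lists as the rule, 0 of 10 genes passed within 5 kb for Damage BMI1 (0.0137% of protein-coding genes) and 0 for Damage H2AK119ub (0.00913%). At homeostasis, 2 of 10 passed for BMI1, Sod3 and Cat, beside 7.33%, and the same 2 passed for H2AK119ub, beside 9.62%. Where 1 list was left out, here and below, a gene was counted only with a peak in both remaining lists. By that stricter rule Cat no longer passed for H2AK119ub without replicate 2 or without replicate 3, which left Sod3 alone. Within 100 kb, 0 of 10 passed for Damage BMI1 (0.0274%) and 0 for Damage H2AK119ub (0.0228%). At homeostasis 5 of 10 passed for BMI1, beside 32.7%, namely Sod1, Sod2, Sod3, Cat and Keap1. Without BMI1 replicate 2 that count was 3. For H2AK119ub the same 5 genes and Nfe2l2 passed, 6 of 10 beside 42.0%, and the count was 1, Sod3, without replicate 2 or without replicate 3. In all 6 Homeostasis lists, Sod3 alone had a peak, both within 5 kb (beside 2.55%) and within 100 kb (beside 12.2%). In 5 or more of the 6, Sod3 and Cat had one within 5 kb (beside 4.63%), and Sod3, Cat and Keap1 within 100 kb (beside 21.1%). With all 3 lists of an antibody required, Sod3 and Cat passed within 5 kb for BMI1 (beside 4.44%) and Sod3 for H2AK119ub (beside 2.92%). Under that rule Sod3, Cat and Keap1 passed within 100 kb for BMI1 (beside 20.2%) and Sod3 for H2AK119ub (beside 13.9%). With so few members, 1 gene more or less moves each share by 10 points.

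The absence of peaks after paraquat was then set against the length of the lists. Peaks within 100 kb of the 10 genes were 0 of 93 in the Damage BMI1 lists, which at 3 counts of the total allows a share of up to 3.23%, and 18 of 16605 in the Homeostasis BMI1 lists (0.108%, exact 95% interval 0.0643 to 0.171%). They were 0 of 124 in the Damage H2AK119ub lists, which likewise allows up to 2.42%, and 26 of 23010 in the Homeostasis H2AK119ub lists (0.113%, interval 0.0738 to 0.166%). These limits cover counting error only. At the Homeostasis share, all 6 Damage lists together would hold 0.241 peaks near the 10 genes, so lists of this length cannot show whether the genes lost peaks beyond the loss in the lists as a whole. The Damage peaks nearest to any of them lay 451 kb from Prdx6 and 779 kb from Prdx1, both in BMI1 lists. For the other 8 genes the nearest Damage peak was 3844 kb or farther away.

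The treatment difference was tested for each gene on log2(peaks + 1), with a two-sided exact permutation of treatment within antibody (400 arrangements, smallest p 0.005) and Benjamini-Hochberg adjustment over all protein-coding genes with a peak in any list. Within 5 kb, 13.1% of 4246 genes had fewer peaks after damage at an adjusted p of 0.05 or less and 0 had more, and 99.2% were lower in direction. Within 100 kb, 17.3% of 15105 genes were lower at that threshold and 0 higher, and 99.4% were lower in direction. A peak in any Damage list was found at 62 protein-coding genes within 5 kb and at 247 within 100 kb. Nearly all genes tested therefore entered through Homeostasis peaks alone and could only be lower, so that rule set the direction. The test counts listed peaks and does not scale for list length. At the Homeostasis share the Damage lists would hold 0.0336 BMI1 and 0.0593 H2AK119ub peaks within 100 kb of Sod3, so a difference in listed peaks at a single gene cannot be told apart from the shorter lists. With that limit, listed peaks at Sod3 differed by -1.36 ± 0.17 (SE, n = 6 libraries a treatment) within 5 kb, with exact permutation p = 0.005 and adjusted p = 0.0383. Within 100 kb the difference at Sod3 was -1.90 ± 0.05, with exact permutation adjusted p = 0.0288. Damage lists at 0 add no spread to any SE given here or below. The Homeostasis BMI1 lists of Sod3 within 100 kb, at 2 peaks each, add none either. That SE of 0.05 thus rests on the 3 Homeostasis H2AK119ub lists alone and does not measure precision over 6 libraries. The medians over all genes tested were -0.431 within 5 kb and -0.597 within 100 kb. Sod3 is 1 of 555 genes called within 5 kb and 1 of 2619 within 100 kb, and the adjusted values are the smallest any gene reached. A gene with 0 peaks in all 6 Damage lists and a peak in all 6 Homeostasis lists reaches the smallest p whatever its counts. The p at Sod3 thus restates that presence and is no separate evidence. Without Homeostasis H2AK119ub replicate 1 the differences at Sod3 were -1.24 within 5 kb and -1.95 within 100 kb.

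The other genes did not pass. Cat differed by -0.83 ± 0.17 within 5 kb (exact permutation p = 0.02, adjusted p = 0.0842) and by -1.22 ± 0.28 within 100 kb (adjusted p = 0.066 in the same exact permutation test). Keap1 differed by -1.0 ± 0.29 within 100 kb (exact permutation adjusted p = 0.066), and Sod1 and Sod2 by -0.67 ± 0.24 each (exact permutation adjusted p = 0.182). Nfe2l2 differed by -0.33 and Gpx3 by -0.17, with exact permutation p of 0.4 and 1. Gpx1, Prdx1 and Prdx6 had no peak and could not be tested. Without Homeostasis H2AK119ub replicate 1, the list of 2000 peaks, Cat passed in both windows (-1.0, adjusted p = 0.0227 within 5 kb, and -1.49, adjusted p = 0.0179 within 100 kb, exact permutation). Keap1 then also passed (-1.25, adjusted p = 0.0179), as did Sod1 and Sod2 (-0.83, adjusted p = 0.0464 each), in the same exact permutation test. Leaving out that list raised the calls over all genes as well, to 22.1% of 4218 genes within 5 kb and 43.1% of 15063 within 100 kb. Nfe2l2 and Gpx3 did not pass without it (-0.50 and -0.25). Calls at Cat, Keap1, Sod1 and Sod2 thus turned on 1 short list, as did many across the genome. None of these genes had a peak in any Damage list. Without the short list, Cat and Keap1 had a peak in every remaining Homeostasis list and so reached the smallest p. As at Sod3, passing or not passing here restates presence in the Homeostasis lists. It cannot be told apart from the shorter Damage lists and is no separate evidence.

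BMI1 and H2AK119ub were last compared with each other at homeostasis, within 100 kb. With 3 lists of each antibody the smallest exact permutation p is 0.1, so no gene could pass, and 0 of 15048 genes had an unadjusted p under 0.05. Sod3 had 6 BMI1 peaks and 11 H2AK119ub peaks, a difference of -0.63 on log2(peaks + 1) (exact permutation p = 0.1, adjusted p = 1). Scaled to list length, Sod3 had 0.398, 0.266 and 0.491 BMI1 peaks and 1.5, 0.297 and 0.532 H2AK119ub peaks per 1000 peaks of a list (exact permutation p = 0.4). The high value is that of the shortest list, and the other 2 H2AK119ub values lie close to the BMI1 range. Cat had 5 BMI1 and 4 H2AK119ub peaks, a difference of 0.33 that was -0.19 without H2AK119ub replicate 1. Keap1 had 3 BMI1 and 4 H2AK119ub peaks, and Sod1 and Sod2 had 2 of each antibody. Nfe2l2 had 0 BMI1 and 2 H2AK119ub peaks, and Gpx3 0 BMI1 peaks and 1 H2AK119ub peak. Without H2AK119ub replicate 1, the difference was -0.74 for Sod3, against -0.63 with it, -0.50 for Keap1, against 0.00, and -0.33 for Sod1 and Sod2, against 0.00 each. It was then -1.0 for Nfe2l2, against -0.67, and -0.50 for Gpx3, against -0.33. With 3 lists of each antibody the test could not have detected a difference at these genes, so it decides nothing about one. The lists were also of unequal length.

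Other genes of the pathway were counted in 4 lists chosen by role, 78 genes in all. Within 5 kb, none had a peak in any Damage list, beside 0.283% of protein-coding genes. At homeostasis, 4 of 78 had a peak in 2 or more of 3 BMI1 lists (5.13%) and 6 of 78 in 2 or more of 3 H2AK119ub lists (7.69%), beside 7.33% and 9.62% of protein-coding genes for BMI1 and H2AK119ub, and 64 had none (82.1%, beside 80.6%). Among the 18 genes of the thioredoxin and peroxiredoxin list none passed for either antibody. Of the 19 glutathione genes, Slc7a11, the cystine transporter subunit, passed for both, and Gsta4, a glutathione transferase that acts on lipid peroxidation products, for H2AK119ub. Of the 20 genes of NRF2 regulation and targets, Bach2, a repressor of the BACH family, had 1 peak in each of the 6 Homeostasis lists, and its gene is 348 kb long. Of the 21 genes of superoxide sources and paraquat reduction, Por passed for both antibodies, with 1, 1 and 1 BMI1 peaks and 0, 1 and 1 H2AK119ub peaks at homeostasis. Por encodes cytochrome P450 reductase, an enzyme that can reduce paraquat. Xdh, xanthine dehydrogenase, also passed for both, and Nos1, the neuronal nitric oxide synthase, for H2AK119ub.

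**Figure D5:**
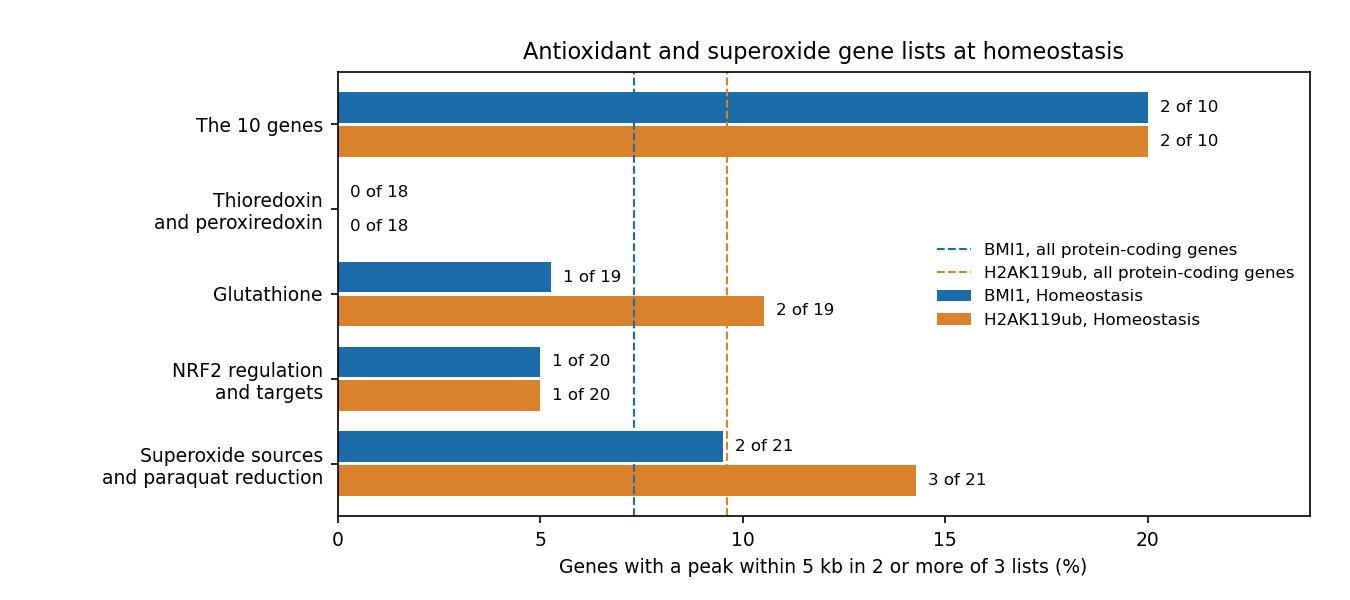
Share of genes (x axis, %) with a peak within 5 kb in 2 or more of 3 Homeostasis lists, for the 10 genes and for 4 other lists of the pathway (rows), with BMI1 in blue and H2AK119ub in orange; labels give the counts and the dashed lines the shares over all protein-coding genes, 7.33% and 9.62%. The 10 genes reach 20% through Sod3 and Cat, and the thioredoxin and peroxiredoxin list is at 0 of 18.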

How the data were processed

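ChIP-seq peak lists of 12 libraries were used. Bowtie2, HOMER 4.8 and the build GRCm38 are named in the submitters' processing notes. How peaks were called, and against which control, is not given in the sources used. For each library the authors deposited a list with positions and a score, which is 1 throughout and ranks nothing. No reads were used and depth is unknown.

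Groups came from the sample titles. Gene boundaries and promoters came from RefSeq tables of GRCm38.p6, which give no exons. Peaks were counted per gene body, 5 kb and 100 kb window. Genes were divided into 10 length classes. Counts were compared on log2(peaks + 1) by two-sided exact permutation tests over libraries, with Benjamini-Hochberg adjustment over all protein-coding genes with a peak. Intervals on shares above 0 are exact binomial (Clopper-Pearson), and a share of 0 is given the limit of 3 counts. Alternatives covered the window, overlap, number of lists, scale, stricter lists, the replicate block and leaving out each library. The treatment permutation test was tried on simulated data, with more Homeostasis peaks per gene than any of the 10 genes had. Both treatments had the same list lengths there, so the effect of short Damage lists was not tested. Python 3.11.15, numpy 2.4.6, pandas 2.3.3, scipy 1.17.1 and matplotlib 3.10.9 were used.

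The 10 genes and the other lists were chosen with earlier results of these data known. All 10 are described. From the other lists the text names up to 6 genes each, with a peak within 5 kb in 2 or more of 3 lists or in any Damage list. For genes with a peak in 3 or more lists, it names the 3 genes most alike in presence over the 12 lists, ties going to the nearest length. A gene beside a member is named by the rule where the peak lies inside it. Other nearest neighbours (Tiam1, Gpr31b, Elf5, Pde4a at the nearest Keap1 site) and the short genes listed with Sod3 were named after their values were seen.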

Additional observations from a re-analysis of the deposited data

How the results depend on the processing

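No Damage peak lay within 100 kb of a member, so the alternatives could give no other count than 0 for the Damage groups. Within 5 kb at homeostasis, with 2 genes for each antibody, counting the gene body alone gave 1 gene for BMI1 and 1 for H2AK119ub. H2AK119ub also gave 1 when 3 of 3 lists were required and with lists limited to peaks shared with another replicate, and 1 to 2 with a library left out. In these counts of genes, a library left out meant that both remaining lists had to hold a peak. Within 100 kb, BMI1 gave 3 genes when 3 of 3 lists were required and 3 to 4 with a library left out, against 5. H2AK119ub gave 1 gene under 3 of 3 lists, 3 with shared peaks, and 1 to 6 with a library left out, against 6. Protein-coding genes called lower after damage at an adjusted p of 0.05 or less numbered 555 within 5 kb, and 488 to 932 with a library left out, and 1064 genes were called when all annotated genes were tested. Within 100 kb they numbered 2619, 1536 for a 50 kb window and 2339 to 6491 with a library left out, the upper values without Homeostasis H2AK119ub replicate 1, and 5914 genes were called among all annotated genes. The BMI1 minus H2AK119ub difference of Cat, 0.33 with all lists, ran from -0.19 to 0.60 with a library left out, and the negative value came without that library. The causes were not tested.

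Nothing in the labels says that the replicate numbers pair the libraries. Deviations from the group means of same-numbered libraries had correlations of -0.00527 to 0.0347 between Damage and Homeostasis, where the Damage lists hold too few peaks to show a pairing, and of 0.188, 0.344 and -0.0674 between BMI1 and H2AK119ub at homeostasis. The numbers were therefore not taken as pairs. With the replicate block, an exact sign-flip test with smallest p 0.0312, 0 genes passed in either window, and Sod3 had adjusted p = 0.239 within 5 kb and 0.179 within 100 kb. Over all alternatives to single-gene results, 226 neither changed sign nor crossed the threshold, 5 passed it, 2 no longer did and 1 changed sign. Values at 0.00 have no direction to keep: BMI1 minus H2AK119ub ran from -0.33 to 0.33 for Sod1 and Sod2 and from -0.50 to 0.50 for Keap1. List length limits the Damage results, and read depth is unknown.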
